A study of Drosophila melanogaster with 84 samples.

Results

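The metallothionein genes *MtnA*, *MtnB*, *MtnC*, *MtnD* and *MtnE* and the gene of their regulator, *MTF-1*, were followed in abdominal fat bodies of *Drosophila melanogaster*. They were chosen by symbol, and all 6 are among the 23932 features of the expression table, of which 17869 carry a FlyBase gene identifier. A further metallothionein gene of the later annotation, *MtnF*, is listed as *CG43222* and was not among those chosen. Its median was 0.54 TPM (range 0 to 5.1 TPM) over the 84 libraries. Metallothioneins are small cysteine-rich proteins that bind zinc, copper and cadmium ions and keep the free metal low. MTF-1 is a zinc finger transcription factor that binds metal response elements upstream of the metallothionein genes, and in flies it also activates the copper importer gene *Ctr1B* when copper is scarce. In *Drosophila*, MtnA is linked mainly to copper handling and MtnB to cadmium, and the fat body, which stores energy and detoxifies, is one of the tissues in which these genes are expressed.

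Bulk RNA sequencing gave 84 libraries of 10 flies each, all collected on day 5 of the conditions. All flies were mated females, raised on a yeast, cornmeal and molasses diet and kept in 12 h of light and 12 h of dark. By the labels they were about 3 days old when the conditions began, whereas the study's methods describe a further spell at 25°C before the shift to 18°C, so the age at the shift is unsure. Wild-type *w*1118 flies (Iso31) were kept on 15% sucrose and yeast (15% SY) at 18°C (24 libraries), on 15% SY at 25°C (24 libraries), or at 25°C on a dilution to 5% of both (5% SY, 24 libraries). These groups were sampled every 2 h at 12 Zeitgeber times (ZT, hours after lights on) in replicate series 1 and 2. *Clk-Jrk* flies, which carry a dominant point mutation of the clock gene *Clk* and were backcrossed 7 times to *w*1118, were kept on 15% SY at 25°C and sampled every 4 h at 6 times in both series (12 libraries). They were one mutant line, and every library pooled its flies, so differences between single animals were not seen. The light schedules of 2 incubators were inverted so that different times could be collected together, and the incubator of each library was not given in the sources used here.

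Values are in TPM, the abundance of a gene's transcripts relative to the library's total, which is already per transcript length, so levels of different genes can be compared. Each library has the same total and keeps no read count. Depth is therefore unknown, and errors rest on how far libraries differ. They had 11497 to 14702 features above 0. The clock mutation showed in its target *tim*, which averaged 57.0 TPM (SD 34.7, range 9.70 to 126) in the 24 wild-type libraries at 25°C on 15% SY and 3.73 TPM (SD 1.35, range 1.57 to 5.70) in the 12 *Clk-Jrk* libraries. *Clk* RNA, at 4.74 and 4.12 TPM, does not check a point mutation. Of 8 fat body markers, none had a median of 0 in any group, and their summed level ranged from 11579 TPM at 18°C to 171903 TPM in *Clk-Jrk*. Replicate series 1 and 2 stood apart in the wild type: at an adjusted *p* below 0.05 (limma, Benjamini-Hochberg), 49.3% of features differed between the series at 18°C, 38.3% at 25°C on 15% SY and 63.0% on 5% SY, against 0.0155% in *Clk-Jrk* (26.7%, 17.3%, 32.7% and 0.00% of all features). Called differences of the members in mean level are therefore given for both series together and for each alone. A single series has a single library per group and time. Its *p*-values from limma therefore measure the spread between times within that series, not between series. Many of the other values below are for both series together only.

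By genome position (BDGP6), the 5 metallothionein genes followed here lie on chromosome arm 3R. *MtnA* spans 9783407 to 9784370 on the minus strand. *MtnC* (20360308 to 20360634, plus), *MtnB* (20503102 to 20503746, minus), *MtnE* (20534021 to 20534704, minus) and *MtnD* (20534962 to 20535301, plus) form a loose group farther along the arm. *MtnE* and *MtnD* point away from each other with 257 bases and no annotated gene between them, whereas *MtnB* and *MtnE* are 30.3 kb apart with 4 genes between, and *MtnC* and *MtnB* 142 kb apart with 7. None of the 5 shares exon bases with another gene. *MTF-1* lies on 3L (9430312 to 9439490, plus), and its exons overlap those of *Bet3* and *CG42526* on the other strand and of *asRNA:CR45872* on the same strand. Counting ignored strand, so reads of *MTF-1* and these neighbours cannot be fully told apart.

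*MtnA* was by far the most abundant member and among the most abundant RNAs of the tissue. Its levels (lowest, median, highest) were 3785, 8220 and 13964 TPM at 18°C, 5616, 8742 and 14669 TPM at 25°C on 15% SY, 4809, 10541 and 16618 TPM on 5% SY, and 7187, 11476 and 14608 TPM in *Clk-Jrk*. It made up 0.816% to 1.08% of all TPM on average in each group and had a rank of 7 to 27 among all features in single libraries. The 4 ranges overlapped almost entirely, so neighbours in this order did not separate beyond their spread.

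*MtnD* and *MtnE* came next, at levels far below *MtnA*. *MtnD* was at 20.4, 53.5 and 117 TPM at 18°C, at 7.54, 29.6 and 80.8 TPM at 25°C on 15% SY, at 8.20, 25.5 and 87.8 TPM on 5% SY and at 30.8, 42.9 and 81.7 TPM in *Clk-Jrk*. *MtnE* was at 15.6, 56.5 and 84.8 TPM at 18°C, at 9.48, 23.4 and 81.7 TPM at 25°C on 15% SY, at 8.57, 26.9 and 69.9 TPM on 5% SY and at 20.8, 30.4 and 42.3 TPM in *Clk-Jrk*. Both genes had their highest median at 18°C, and all ranges overlapped.

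*MtnB* and *MtnC* were low and uneven. *MtnB* was at 0, 2.43 and 13.5 TPM at 18°C, at 0.37, 4.43 and 19.5 TPM at 25°C on 15% SY, at 0.86, 4.80 and 40.4 TPM on 5% SY and at 0.82, 3.86 and 24.2 TPM in *Clk-Jrk*. *MtnC* was at 0, 5.14 and 213 TPM at 18°C, at 0.46, 5.56 and 127 TPM at 25°C on 15% SY, at 0, 4.79 and 60.3 TPM on 5% SY and at 0, 1.20 and 46.9 TPM in *Clk-Jrk*. A few libraries carried most of the *MtnC* signal, as its standard deviation of 69.0 TPM at 18°C against a mean of 44.3 TPM shows.

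The regulator *MTF-1* varied least of the members at 18°C and at 25°C on 15% SY. It was at 20.7, 24.9 and 32.5 TPM at 18°C, at 17.0, 21.9 and 28.8 TPM at 25°C on 15% SY, at 13.2, 19.7 and 31.9 TPM on 5% SY and at 12.5, 20.7 and 26.1 TPM in *Clk-Jrk*. Its coefficient of variation within a group was 13.3% to 25.6%, against 23.2% to 42.3% for *MtnA*, 34.3% to 58.7% for *MtnD*, 20.1% to 54.8% for *MtnE* and 141% to 220% for *MtnC*. On 5% SY it was 25.6% against 23.5% for *MtnA*, and in *Clk-Jrk* 20.3% against 20.1% for *MtnE*.

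**Figure D1:**
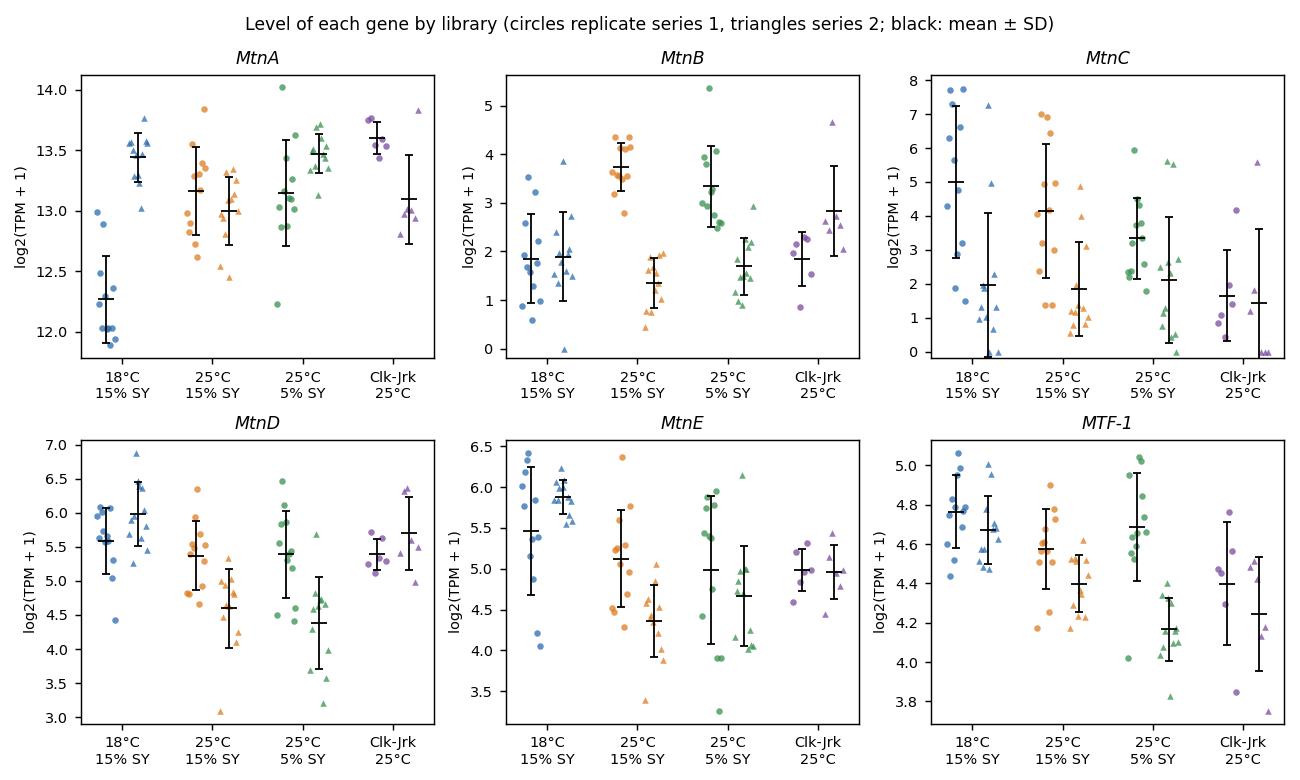
Level of each of the 6 genes in all 84 libraries on the log2(TPM + 1) scale, by group and replicate series (circles series 1, triangles series 2), with the mean and SD of each series in black. At 18°C the 12 *MtnA* libraries of series 1 (3785 to 8114 TPM) lie below all 12 of series 2 (8326 to 13964 TPM), and at 25°C on 15% SY the *MtnB* libraries of series 1 (5.94 to 19.5 TPM) lie above all of series 2 (0.37 to 2.91 TPM).

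Every metallothionein followed here differed between the replicate series in at least 1 wild-type group. *MtnA* at 18°C ran from 3785 to 8114 TPM in series 1 and from 8326 to 13964 TPM in series 2, and it was higher in series 2 at 12 of 12 times (log2 difference 1.18, SE 0.11, adjusted *p* = 3.29e-08, limma). *MtnB* at 25°C on 15% SY ran the other way, at 5.94 to 19.5 TPM in series 1 and 0.37 to 2.91 TPM in series 2, and it fell by 2.39 on the log2 scale from series 1 to series 2 (SE 0.21, adjusted *p* = 7.20e-08, limma over all features). Neither pair of ranges overlapped. For these and for the ranges without overlap below, the share of all features that likewise did not overlap was not counted. *MtnD* was lower in series 2 at 12 of 12 times on 5% SY (fell by 1.00, SE 0.16, adjusted *p* = 1.88e-05, limma) and higher in series 2 at 9 of 12 times at 18°C (0.40, SE 0.16, adjusted *p* = 0.0469, limma). *MTF-1* differed between the series on 5% SY only by this test (fell by 0.52, SE 0.09, adjusted *p* = 7.13e-05, limma), and no member differed in *Clk-Jrk*, where 6 libraries per series were compared.

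To ask how a lasting shift in temperature bears on these genes, the 24 libraries at 18°C were compared with the 24 at 25°C on the same diet by limma on log2(TPM + 1), with group crossed with the cosine and sine of a 24 h period. All 3 comparisons below use the wild-type libraries at 25°C on 15% SY as their reference, so they are not independent of each other. *MtnD*, *MtnE* and *MTF-1* were higher at 18°C, while *MtnA*, *MtnB* and *MtnC* did not pass the test. This is 3 of 6 members higher, where 23.2% of the 7157 features tested were called higher and 53.6% were called in either direction. In bulk RNA, fewer cells of a type and less RNA per cell cannot be told apart.

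*MtnE* rose by 0.93 on the log2 scale (SE 0.16, adjusted *p* = 8.10e-06, limma with Benjamini-Hochberg adjustment) and was higher at 18°C in 21 of 24 libraries matched by time and series. *MtnD* rose by 0.80 (SE 0.15, adjusted *p* = 3.05e-05, limma) and was likewise higher in 21 of 24. *MTF-1* rose by 0.23 (SE 0.05, adjusted *p* = 4.53e-04, limma), a mean of 25.5 TPM (SD 3.39) at 18°C against 21.6 TPM (SD 3.06) at 25°C. The log2 differences of the 2 neighbouring genes were larger than that of the regulator, and the *MTF-1* difference was larger than its SE in both series.

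Most of the *MtnD* and *MtnE* difference came from series 2. There *MtnE* was at 45.9 to 74.6 TPM at 18°C and at 9.48 to 32.4 TPM at 25°C, with no overlap, a log2 difference of 1.52 (SE 0.11, adjusted *p* = 2.64e-09, limma). In series 1 it was at 15.6 to 84.8 TPM against 18.5 to 81.7 TPM, a log2 difference of 0.34 (SE 0.24, adjusted *p* = 0.242, limma). *MtnD* gave a log2 difference of 1.39 in series 2 (SE 0.17, adjusted *p* = 2.01e-06, limma) and 0.22 in series 1 (SE 0.18, adjusted *p* = 0.320, limma). In the dark phase only, *MtnE* no longer passed (0.53, adjusted *p* = 0.155, limma). *MTF-1* gave 0.27 in series 2 (SE 0.07, adjusted *p* = 0.00322, limma) and 0.19 in series 1 (SE 0.08, adjusted *p* = 0.0626, limma).

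*MtnA* pointed in opposite directions in the series. In series 1 it was lower at 18°C at 11 of 12 times, at a mean of 5084 TPM (SD 1428) against 9443 TPM (SD 2427), and fell by 0.90 on the log2 scale (SE 0.14, adjusted *p* = 3.09e-05, limma). In series 2 it was higher at 11 of 12 times, at a mean of 11231 TPM (SD 1507) against 8323 TPM (SD 1524), a log2 difference of 0.44 (SE 0.09, adjusted *p* = 6.71e-04, limma). Together they gave a log2 difference of -0.23 (SE 0.15, adjusted *p* = 0.204, limma). The summed fat body markers split by series as well: at 18°C they were at 11579 to 53321 TPM in series 1 and at 54711 to 106412 TPM in series 2, with no overlap, and at 25°C at 47262 to 89575 TPM and at 80099 to 169493 TPM. Their part in the *MtnA* values was not tested.

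*MtnB* had a log2 difference of -0.67 (SE 0.33, adjusted *p* = 0.140, limma over all 19398 features, since its median was at or under 5 TPM in both groups; 26.9% of those features were called). In series 1 it was lower at 18°C at 12 of 12 times, at 0.51 to 10.5 TPM against 5.94 to 19.5 TPM, and fell by 1.89 (SE 0.31, adjusted *p* = 2.33e-04, limma), whereas series 2 gave 0.55 (SE 0.32, adjusted *p* = 0.331, limma). *MtnC* had a log2 difference of 0.48 (SE 0.67, adjusted *p* = 0.560, limma), with a 95% interval of -0.87 to 1.83.

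**Figure D2:**
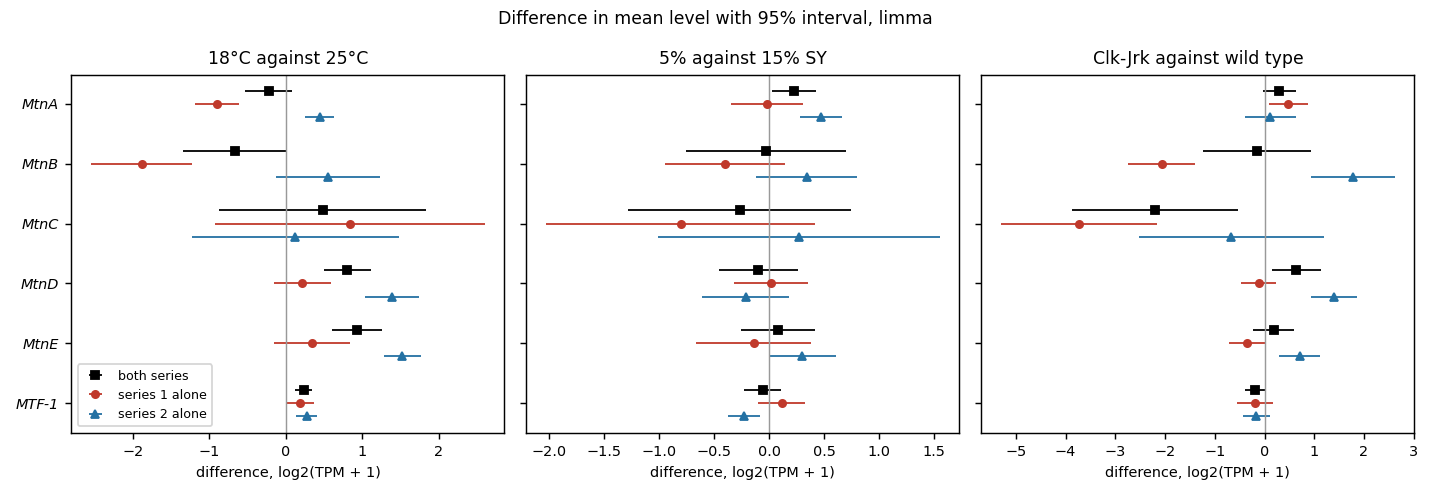
Difference in mean level of each gene in the 3 comparisons on the log2(TPM + 1) scale, with 95% intervals, from limma, for both replicate series (squares), series 1 alone (circles) and series 2 alone (triangles). For 18°C against 25°C, *MtnA* lies at -0.90 in series 1 and at 0.44 in series 2, and *MtnE* at 0.34 and 1.52.

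Whether the temperature difference itself differed between the series was tested with a series by group term, added after the split was seen. It did for 4 members: *MtnA* (series 2 minus series 1 on the log2 scale 1.34, SE 0.17, adjusted *p* = 1.65e-07, limma), *MtnB* (2.43, SE 0.44, adjusted *p* = 2.61e-04, limma over all features), *MtnD* (1.17, SE 0.25, adjusted *p* = 0.00128, limma) and *MtnE* (1.18, SE 0.28, adjusted *p* = 0.00377, limma). Of all 7157 features tested, 6.73% were called by this term, and 3.30% of all features. *MtnC* and *MTF-1* were not called.

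Markers of other cell types moved with temperature as well. Of 7 ovary markers, 7 were lower at 18°C, and their sum ranged from 3.20 to 2272 TPM at 18°C and from 46.0 to 3650 TPM at 25°C on 15% SY. The 4 muscle and the 4 haemocyte markers that were tested were all higher at 18°C, with sums of 1362 to 3925 TPM against 916 to 2222 TPM for muscle and 52.6 to 170 TPM against 29.1 to 78.1 TPM for haemocytes. Of 7 fat body markers tested, 4 were lower and 1 was higher at 18°C, with sums of 11579 to 106412 TPM against 47262 to 169493 TPM. Of 3 oenocyte markers, 2 were higher (26178 to 53332 TPM against 19729 to 52435 TPM). Of 4 Malpighian tubule markers tested, 1 was higher and 1 lower, and none of the 6 midgut markers tested was called. Their part in the differences of *MtnD*, *MtnE* and *MTF-1* was not tested.

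To ask how the diluted diet bears on the same genes, the 24 libraries on 5% SY were compared with the 24 on 15% SY at 25°C. No member was called, where 31.9% of 7000 features were (6.24% higher and 25.6% lower). The features tested shifted by a median log2 difference of -0.11, and *MtnA* had the largest positive difference among the members, 0.23 (SE 0.10, adjusted *p* = 0.0750, unadjusted *p* = 0.0281, limma). It was the 1 member with an unadjusted *p* below 0.05. With libraries scaled by the median of ratios, which took the shift of the features tested to 0.00 and the split of called features from 437 higher and 1793 lower to 1067 and 1414, *MtnA* passed the test (0.35, adjusted *p* = 0.0350, limma).

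By series, *MtnA* was higher on 5% SY at 12 of 12 times in series 2, at 8983 to 13454 TPM against 5616 to 10441 TPM (log2 difference 0.47, SE 0.09, adjusted *p* = 7.14e-04, limma), and at 5 of 12 times in series 1 (-0.02, SE 0.16, adjusted *p* = 0.955, limma). *MTF-1* was lower on 5% SY at 11 of 12 times in series 2, at 13.2 to 20.2 TPM against 17.0 to 23.6 TPM, and fell by 0.23 there (SE 0.07, adjusted *p* = 0.00877, limma), with 0.11 (SE 0.10, adjusted *p* = 0.525, limma) in series 1. The differences of *MtnB* (-0.03), *MtnC* (-0.27), *MtnD* (-0.10) and *MtnE* (0.08) had 95% intervals that spanned 0 (-0.75 to 0.70, -1.28 to 0.75, -0.46 to 0.26 and -0.26 to 0.42). The series by group term called no member, where it called 10.9% of features tested and 2.81% of all features. Series 1 alone called 2 of the 7000 features for this comparison. Of the markers tested, 5 of 7 for ovary (sums of 1.79 to 3576 TPM against 46.0 to 3650 TPM) and 2 of 7 for fat body (53585 to 98376 TPM against 47262 to 169493 TPM) were lower on 5% SY. Those higher were 2 of 3 for haemocytes (47.8 to 85.8 TPM against 29.1 to 78.1 TPM) and 2 of 4 for muscle (1141 to 2563 TPM against 916 to 2222 TPM). Their part in these values was not tested.

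To ask what the clock mutation changes, the 12 *Clk-Jrk* libraries were compared with the 12 wild-type libraries of the same 6 times at 25°C on 15% SY. *MtnC* was lower and *MtnD* higher in *Clk-Jrk*, which is 1 member in each direction, where 36.4% of 7093 features were called lower and 10.2% higher (46.6% in either direction). *MtnC* passed the filter only through the wild type, which favours a call as lower. The features tested shifted by a median log2 difference of -0.22, and scaling by the median of ratios took this to 0.01 and the split of calls from 725 higher and 2579 lower to 1686 and 1268.

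*MtnD* was at 30.8, 42.9 and 81.7 TPM (lowest, median, highest) in *Clk-Jrk* and at 7.54, 27.5 and 80.8 TPM in these wild-type libraries. It rose by 0.64 on the log2 scale (SE 0.23, adjusted *p* = 0.0320, limma) and by 0.88 after scaling (adjusted *p* = 0.00997, limma). *MtnD* was higher at 6 of 6 times in series 2, at 30.8 to 81.7 TPM against 7.54 to 27.7 TPM with no overlap (log2 difference 1.40, SE 0.20, adjusted *p* = 0.00211, limma). In series 1 it was higher at 2 of 6 times (-0.12, SE 0.16, adjusted *p* = 0.623, limma).

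*MtnC* was at 0, 1.20 and 46.9 TPM in *Clk-Jrk* and at 0.46, 11.6 and 127 TPM in the wild type. It fell by 2.20 on the log2 scale (SE 0.80, adjusted *p* = 0.0310, limma) and was lower in 8 of 12 matched libraries. Here series 1 carried the difference: *MtnC* was at 0.34 to 17.0 TPM against 6.97 to 127 TPM and fell by 3.73 (SE 0.69, adjusted *p* = 0.00696, limma), with -0.67 in series 2 (SE 0.83, adjusted *p* = 0.522, limma). Fitted over all 17879 features, of which 23.1% were called, neither *MtnC* nor *MtnD* passed (adjusted *p* = 0.0615 and 0.0612, limma). In the light or the dark phase only, neither passed either: *MtnC* gave -1.39 and -3.01 (adjusted *p* = 0.349 and 0.0531, limma), and *MtnD* gave 1.04 and 0.23 (adjusted *p* = 0.0577 and 0.611, limma).

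The summed midgut markers had a lower median in *Clk-Jrk*, with ranges that overlapped, but not in series 2 alone (11.3 TPM in the wild type and 16.5 TPM in *Clk-Jrk*). The sum of 10 midgut markers (trypsins, Jonah proteases, amylase, maltase and *labial*) had a median of 46.2 TPM (range 3.83 to 10646 TPM) in the 12 wild-type libraries and of 16.6 TPM (2.17 to 620 TPM) in *Clk-Jrk*, and in series 1 alone it was 1989 TPM (8.41 to 10646 TPM) against 23.6 TPM (2.17 to 251 TPM). Of the 5 midgut markers tested, none was called (median log2 difference -2.71, limma), and *deltaTry* was at a median of 0 in every group. Of 4 Malpighian tubule markers tested, 3 were lower in *Clk-Jrk*, with sums of 8.14 to 116 TPM against 67.8 to 224 TPM. Fat body markers were higher for 3 of 7 and lower for 1, with a sum of 107118 to 171903 TPM in *Clk-Jrk*, and the 4 muscle markers were all lower, at 711 to 1517 TPM. Haemocyte markers were higher for 2 of 4 and ovary markers lower for 2 of 7, at 40.0 to 117 TPM and 39.5 to 1289 TPM. Their part in the *MtnC* and *MtnD* differences was not tested.

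*MtnB* split completely by series. It too passed the filter only through the wild type (median 6.115 TPM, against 3.86 TPM in *Clk-Jrk*), which favours a call as lower. The wild-type median was 13.8 TPM in series 1 and 1.17 TPM in series 2. In series 1 it was lower in *Clk-Jrk* at 6 of 6 times, at 0.82 to 3.95 TPM against 10.2 to 19.5 TPM, and fell by 2.07 (SE 0.30, adjusted *p* = 0.00283, limma). In series 2 it was higher at 6 of 6 times, at 3.12 to 24.2 TPM against 0.37 to 2.05 TPM (log2 difference 1.77, SE 0.37, adjusted *p* = 0.0108, limma). Neither pair of ranges overlapped, though the share of all features without overlap was not counted. Both series together gave -0.15 (SE 0.52, adjusted *p* = 0.823, limma).

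The remaining members did not pass the test. *MtnA* had a log2 difference of 0.30 (SE 0.16, adjusted *p* = 0.126, limma), which passed after scaling (0.54, adjusted *p* = 0.0274, limma), and it was higher in 9 of 12 matched libraries. *MtnE* gave 0.18 (SE 0.20, adjusted *p* = 0.465, limma), with 0.70 in series 2 (adjusted *p* = 0.0229, limma) and -0.35 in series 1 (adjusted *p* = 0.160, limma). *MTF-1* gave -0.18 (SE 0.10, adjusted *p* = 0.129, limma) and 0.05 after scaling, so that its sign followed the scaling. The difference itself differed between the series for *MtnB* (3.84, SE 0.50, adjusted *p* = 0.00119, limma), *MtnD* (1.52, SE 0.28, adjusted *p* = 0.0108, limma) and *MtnE* (1.05, SE 0.24, adjusted *p* = 0.0235, limma), where 5.12% of features tested and 1.28% of all features were called by this term.

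Daily profiles were tested in each group by harmonic regression of TPM on a 24 h cosine and sine, with a threshold of 0.1 on the *F*-test *p*. The study set this threshold too, but asked for it in both of its experiments and for similar phases, so a pass here is a weaker criterion. *MtnD* and *MtnE* peaked in the later part of the light phase or near lights off where they passed, *MTF-1* peaked early in the night at 18°C, and *MtnA* and *MtnB* passed in no group. At 18°C the members that passed were *MtnD*, *MtnE* and *MTF-1*, where 30.5% of 6816 features passed. *MtnD* was the 1 member that passed at 25°C on 15% SY, where 19.0% of 6909 features passed. On 5% SY, *MtnD* and *MtnE* passed, where 10.1% of 6653 features did, and *MtnC*, whose median there was under 5 TPM, also had *p* = 0.0909. No member passed in *Clk-Jrk*, where 18.0% of 6437 features did.

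On 5% SY, *MtnE* peaked at ZT 10.4 (SE 1.03 h) with an amplitude of 47.7% of its mean (*p* = 0.00511, harmonic regression), and *MtnD* at ZT 9.95 (SE 1.06 h) with 50.2% (*p* = 0.00644). *MtnE* ran from 8.57 TPM at ZT 22 of series 1 to 69.9 TPM at ZT 10 of series 2, and the highest *MtnD* library, 87.8 TPM, was at ZT 8 of series 1. At 18°C, *MtnE* peaked at ZT 8.04 (SE 1.07 h, amplitude 28.2%, *p* = 0.00686) and *MtnD* at ZT 11.6 (SE 1.51 h, 23.7%, *p* = 0.0605). *MtnE* at 18°C was highest at ZT 10 in both series (84.8 and 74.6 TPM) and lowest at ZT 24 of series 1 (15.6 TPM). The night values were not uniformly low: *MtnE* of series 1 on 5% SY stood at 54.1 and 60.9 TPM at ZT 16 and ZT 18.

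*MTF-1* at 18°C peaked at ZT 15.9 (SE 1.10 h) with an amplitude of 11.1% (*p* = 0.00849, harmonic regression), and its 2 libraries averaged 21.0 TPM at ZT 6 and 31.3 TPM at ZT 16. At 25°C on 15% SY its amplitude was 2.37% (*p* = 0.856) and on 5% SY 7.30% (*p* = 0.635). *MtnD* at 25°C on 15% SY peaked at ZT 12.8 (SE 1.60 h, amplitude 29.5%, *p* = 0.0799). Adjusted over the features tested in each group, no member's rhythm was below 0.05 in any group (lowest 0.0825, *MtnE* at 18°C), where 4.90%, 0.434%, 0.406% and 0.00% of features were in the 4 groups in the order above. Scaling by the median of ratios took *MTF-1* and *MtnD* at 18°C to *p* = 0.201 and 0.251, and a light-dark step as a covariate took *MtnE* at 18°C to *p* = 0.479. In single series the test was also lost for *MtnD* (*p* = 0.239, series 1) and *MTF-1* (*p* = 0.163, series 2) at 18°C, for *MtnD* at 25°C on 15% SY (*p* = 0.170, series 1), for *MtnE* on 5% SY (*p* = 0.118, series 1) and for *MtnC* on 5% SY in both (*p* = 0.112 and 0.618). In series 2 alone, *MtnA* at 18°C (*p* = 0.0309) and *MtnD* in *Clk-Jrk* (*p* = 0.0745) passed.

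**Figure D3:**
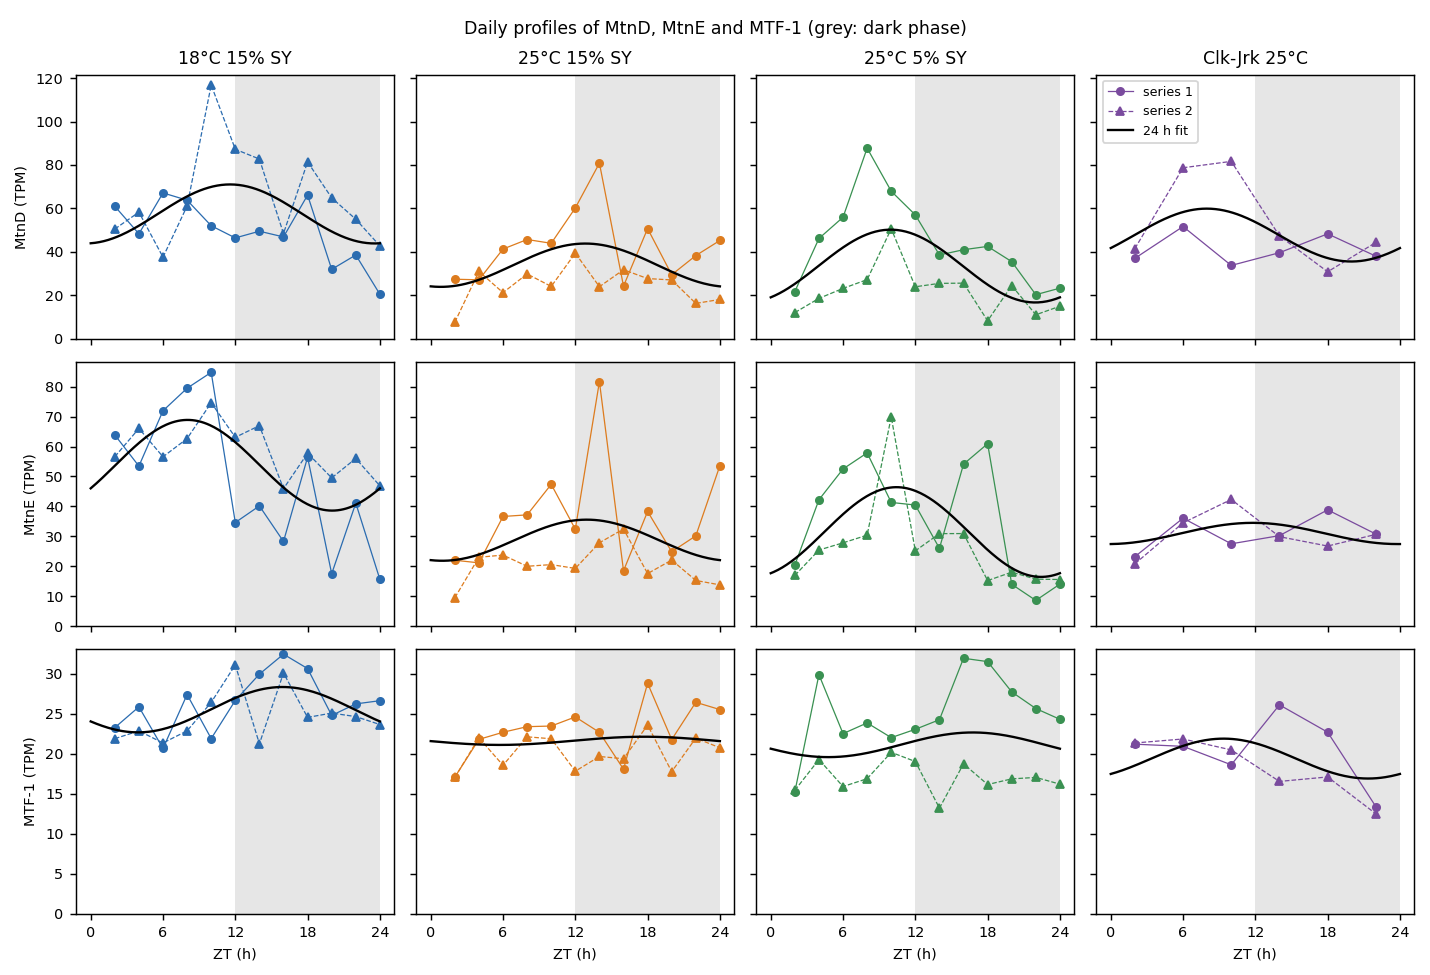
TPM of *MtnD*, *MtnE* and *MTF-1* against Zeitgeber time in the 4 groups, with series 1 as circles, series 2 as triangles, the 24 h fit in black and the dark phase in grey. On 5% SY the fits of *MtnD* and *MtnE* peak at ZT 9.95 and ZT 10.4, before lights off, and *MTF-1* at 18°C peaks at ZT 15.9.

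A difference in rhythm between groups was tested by limma's *F*-test of the group by cosine and sine terms. No member was called in any comparison, where 1.05% of features were called for temperature, 0.00% for diet and 0.0564% for the clock mutation. At an unadjusted *p* below 0.05 these shares were 23.9%, 1.41% and 9.15%, and still no member passed. The lowest member values were *MtnE* for diet (*p* = 0.0839) and *MTF-1* for the clock mutation (*p* = 0.0969), so a member passing the rhythm test in one group and not in another is not shown to differ between them.

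*MtnD* and *MtnE* varied together from library to library. Over the 84 libraries, after removal of group means, their Spearman correlation was 0.80, above that of *MtnD* with 99.99% of the 6755 features with a median above 5 TPM, and it was 0.74 to 0.79 within the groups and 0.78 with series means removed too. The next most alike features to *MtnD* were *Fer1HCH* and *Fer2LCH* (0.70 and 0.69), the heavy and light chains of the iron store ferritin. *Fer1HCH* rose by 0.45 at 18°C (SE 0.06, adjusted *p* = 9.11e-09, limma), from a mean of 1206 TPM (SD 155) to 1646 TPM (SD 186), and *Fer2LCH* by 0.39 (SE 0.06, adjusted *p* = 2.15e-07, limma). *MtnE* was next most like *CG15711* (0.63) and *CG9527* (0.62). The libraries share replicate series and makeup, so these are descriptions with no test.

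**Figure D4:**
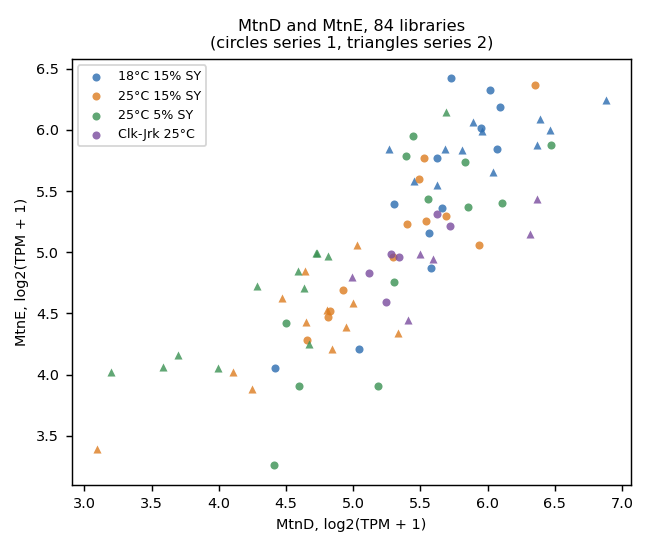
*MtnE* against *MtnD* in 84 libraries, both as log2(TPM + 1), coloured by group, with circles for series 1 and triangles for series 2. *MtnE* is higher where *MtnD* is higher in each of the 4 groups (Spearman correlation 0.74 to 0.79).

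The other members had lower correlations with this pair. *MtnB* had 0.53 with *MtnD* and 0.45 with *MtnE* (0.27 and 0.28 with series means removed), and *MtnC* had 0.29 and 0.35. *MtnA* was most like *CG30503* (0.82), *DNaseII* (0.71), which encodes an acid deoxyribonuclease, and *CG3246* (0.70), and its correlations with *MtnD* and *MtnE* were 0.13 and 0.23. *MtnA* followed the summed fat body markers (0.58, and 0.53 with series means removed). *MTF-1* was most like *Iml1* (0.80), a subunit of the GATOR1 complex that restrains TORC1, *CG3308* (0.79) and the small GTPase gene *Rho1* (0.78). Its correlations with the 5 metallothioneins were -0.15 for *MtnA*, 0.41 for *MtnB*, 0.35 for *MtnC*, 0.47 for *MtnD* and 0.24 for *MtnE*. Removing series means too left -0.12, 0.13, 0.17, 0.23 and 0.10 in the same order. The sign depended on the group for *MtnA* (18°C: -0.51, 25°C on 15% SY: 0.33), *MtnD* (-0.08, 0.67) and *MtnE* (-0.47, 0.56). For *MtnB* and *MtnC* every group gave a positive value.

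*MtnC* followed the midgut markers over the 84 libraries (0.61, and 0.57 with series means removed). The other members had 0.38 (*MtnE*, 0.43 with series means removed), 0.27 (*MtnB*), 0.25 (*MtnD*), 0.23 (*MTF-1*) and -0.30 (*MtnA*) with the same markers. *MtnC* had 0.40 with Malpighian tubule and 0.41 with oenocyte markers (0.28 and 0.10 with series means removed). The 12 libraries highest in *MtnC*, at 47.7 to 213 TPM, held 271 to 12221 TPM of midgut markers, although the dissection removed the intestine. All 12 were wild type, where the group medians of these markers were 20.7 to 175 TPM. The highest *Clk-Jrk* library, at ZT 10 of series 2, lay just under them, at 46.9 TPM of *MtnC* with 620 TPM of midgut markers. Of the 84 libraries, 12 were *Clk-Jrk*. The library with the most *MtnC*, at 18°C and ZT 22 of series 1 (213 TPM), had 271 TPM of midgut markers, more than 13 of the 24 libraries of its group. Its Malpighian tubule markers, at 314 TPM, were above those of 22 of them. On 5% SY, the series 1 library at ZT 12 held 5316 TPM of midgut markers with at most 12.4 TPM of *MtnC*. At 25°C on 15% SY, the libraries of series 1 at ZT 6 and ZT 14 had 127 and 119 TPM of *MtnC* with 7923 and 10646 TPM of midgut markers. Their part in the *MtnC* levels was not tested.

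**Figure D5:**
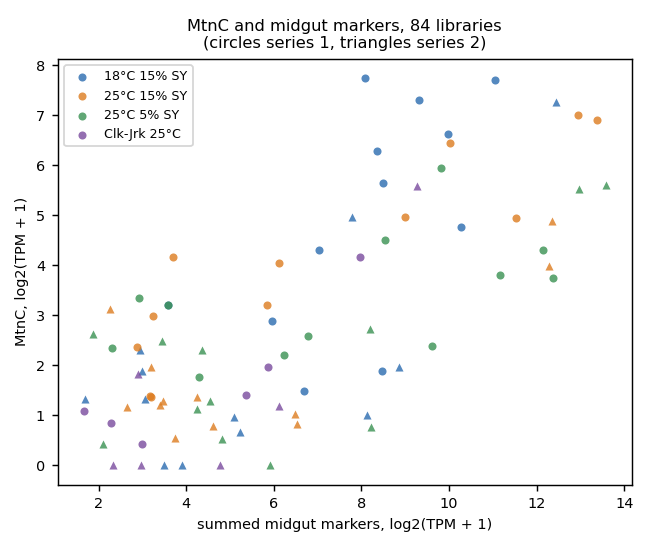
*MtnC* against the summed level of 10 midgut markers in 84 libraries, both as log2(TPM + 1), coloured by group, with circles for series 1 and triangles for series 2. The 12 libraries highest in *MtnC* (47.7 to 213 TPM) all lie at 271 TPM of midgut markers or more.

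Beyond the metallothioneins, 27 genes of zinc and copper transport and delivery were matched, of which 21 passed the filter in each comparison. At 18°C, 8 were higher and 6 lower (median log2 difference 0.06, against -0.06 over the features tested), a share of 14 of 21 where 53.6% of features were called. Of 7 tested genes of the ZIP family, 3 rose, among them *Zip99C* by 0.48 (SE 0.08, adjusted *p* = 7.13e-06, limma), and 1 fell. The ZIP genes were listed together as zinc importers, and which metal each carries was not tested. Of 5 zinc exporters of the ZnT family, 3 rose and 2 fell. *ZnT41F* rose by 0.35 (SE 0.09, adjusted *p* = 0.00183, limma) and *ZnT63C* by 0.35 (SE 0.06, adjusted *p* = 4.09e-06, limma), whereas *ZnT35C* fell by 0.72 (SE 0.25, adjusted *p* = 0.0146, limma). Among 9 copper genes, 2 rose and 3 fell. *Sod3*, an extracellular superoxide dismutase, fell by 0.86 (SE 0.20, adjusted *p* = 5.69e-04, limma) and *Scox*, a copper chaperone of cytochrome oxidase, by 0.46 (SE 0.08, adjusted *p* = 5.79e-06, limma). All 14 had the same sign in both series, and *Ccs*, *Scox*, *Zip102B*, *Zip99C* and *ZnT63C* were called in each series alone. The 14 were picked by the fit of both series together, which favours the same sign in each. The share of all called features with these traits was not counted.

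On 5% SY, 1 of the 21 genes was higher and 6 were lower (median -0.11, as over the features tested), where 6.24% of features were higher and 25.6% lower (31.9% called), and the split of the genes became 4 and 3 after scaling. *ZnT41F* rose by 0.28 (SE 0.08, adjusted *p* = 0.0107, limma). *ZnT35C* fell by 0.78 (SE 0.24, adjusted *p* = 0.0165, limma), *Sod3* by 0.74 (SE 0.23, adjusted *p* = 0.0175, limma) and the importer *foi* by 0.32 (SE 0.10, adjusted *p* = 0.0193, limma). Of the 7, 6 had the same sign in both series, *ATP7*, a copper-transporting ATPase, did not (-0.49 in series 2 and 0.05 in series 1), none was called in both series alone, and series 1 alone called none of the 21. The 7 were again picked by the fit of both series together, which favours the same sign.

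In *Clk-Jrk*, 4 of the 21 genes were higher and 10 lower (median -0.23, against -0.22 over the features tested), where 10.2% of features were higher and 36.4% lower (46.6% called), and the split of the genes became 6 and 3 after scaling. *Zip71B* fell by 1.33 (SE 0.32, adjusted *p* = 0.00244, limma), *Cox17*, a copper chaperone of the mitochondria, by 0.78 (SE 0.11, adjusted *p* = 1.02e-05, limma), and *Sod3* by 0.66 (SE 0.27, adjusted *p* = 0.0469, limma), which did not pass after scaling (adjusted *p* = 0.113, limma). The exporter *ZnT49B* rose by 0.29 (SE 0.06, adjusted *p* = 8.86e-04, limma), *Ccs*, the copper chaperone of Sod1, by 0.28 (SE 0.06, adjusted *p* = 7.20e-04, limma) and *ZnT41F* by 0.26 (SE 0.10, adjusted *p* = 0.0383, limma). The 14 genes had the same sign in both series, and *Cox17* and *ZnT63C* were called in each series alone. These 14 too were picked by the fit of both series together, which favours the same sign.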

How the data were processed

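The deposited TPM values were used as given. The authors quantified reads with RSEM (1.3.1) after alignment with STAR (2.7.10a) to BDGP6, release 107 of the Ensembl annotation, without regard to strand. Positions came from release 115 of the same assembly. Libraries were grouped by the genotype, diet and temperature in their labels, and times were taken from the sample titles.

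Mean levels and rhythm differences were tested in limma (3.58.1, R 4.3.3; eBayes with trend) on log2(TPM + 1) over features with a median TPM above 5 in either group, with Benjamini-Hochberg adjustment and a threshold of 0.05. Fold changes on this scale understate the change of low genes. A member under the filter took its value from the fit over all features. Rhythms were tested by harmonic regression (numpy 2.4.6, scipy 1.17.1). The *p*-values measure the spread between pooled libraries. The fits were tested on simulated data. The members and lists were chosen with earlier results of these data known. Named transport genes are the 3 with the largest rise and the 3 with the largest fall among those called in each comparison, and the most alike features are the 3 with the highest Spearman correlation. Of the muscle markers, 1 of 5 was not matched by symbol, and *Cox17* stands in the table as *CG9065*. Alternatives changed the pseudocount (0.1), the filter (1 or none), the scaling, the trend, the replicate block, the replicates, the phase of day and single libraries. The terms for replicate series and the fit without the libraries highest in *MtnC* were added after seeing the data.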

Additional observations from a re-analysis of the deposited data

Results flagged for a closer look

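For 18°C against 25°C, the difference of 4 members was not the same in replicate series 2 as in series 1 (series 2 minus series 1 on the log2 scale): *MtnA* 1.34, *MtnB* 2.43, *MtnD* 1.17 and *MtnE* 1.18, each at an adjusted *p* below 0.05 (limma, series by group term). *MtnA* and *MtnB* changed sign between the series, and *MtnD* and *MtnE* had the same sign with a larger difference in series 2.

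For *Clk-Jrk* against wild type, the difference between series was 3.84 for *MtnB*, 1.52 for *MtnD* and 1.05 for *MtnE* by the same term, and all 3 changed sign between the series. The series are replicate numbers in the labels, and what set them apart was not tested.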

How the results depend on the processing

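TPM keeps no read counts, so the counting error of *MtnB* and *MtnC*, the lowest members, is unknown, and replicate series limit every comparison. The called differences of *MtnD*, *MtnE* and *MTF-1* at 18°C kept their direction in every alternative. Outside the fits without one replicate, values with the opposite sign to the reported one were these (log2 scale): for 18°C against 25°C, *MtnC* -0.50 in the dark phase only. For 5% against 15% SY, *MtnB* 0.0401 with a pseudocount of 0.1, 0.0540 after scaling, 0.0446 in the light phase only and 0.0606 at most with 1 library left out, *MtnC* 0.31 and *MtnD* 0.21 in the light phase only, *MtnD* 0.0173 and *MTF-1* 0.0553 after scaling, and *MtnE* -0.33 in the dark phase only. For *Clk-Jrk*, *MtnB* 0.0393 after scaling, 0.0577 in the light phase only and 0.0651 at most with 1 library left out, and *MTF-1* 0.0501 after scaling and 0.0514 in the light phase only. None of those with a test was called.

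Without replicate 1 or 2, log2 differences ranged as follows. For 18°C against 25°C, *MtnA* ranged from -0.90 to 0.44 and *MtnB* from -1.89 to 0.55. For 5% against 15% SY, *MtnA* ranged from -0.0184 to 0.47, *MtnB* from -0.40 to 0.34, *MtnC* from -0.81 to 0.27, *MtnD* from -0.21 to 0.0169, *MtnE* from -0.14 to 0.30 and *MTF-1* from -0.23 to 0.11. For *Clk-Jrk*, *MtnB* ranged from -2.07 to 1.77, *MtnD* from -0.12 to 1.40 and *MtnE* from -0.35 to 0.70.

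Members called for mean level (3, 0 and 2 in the order temperature, diet, clock mutation) became 1 for diet after scaling, and 0 for the clock mutation over all features, in the light phase only and in the dark phase only. Without one replicate they were 0 to 2 for diet. For temperature the members called changed: series 1 alone called *MtnA* and *MtnB* lower and none of *MtnD*, *MtnE* and *MTF-1*. Series 2 alone called *MtnA*, *MtnD*, *MtnE* and *MTF-1* higher. The transport genes called (14, 7 and 14) became 8, 0 and 3 in the light phase only and 7, 0 and 6 in the dark phase only, and 9 for the clock mutation after scaling. Without one replicate they ranged from 8 to 11, from 0 to 11 and from 4 to 7. Members called rhythmic (3, 1, 3 and 0 at 18°C, 25°C, 5% SY and in *Clk-Jrk*) became 1 at 18°C after scaling, 2 at 25°C with a light-dark step as covariate and 0 at 25°C at the threshold of 0.05. Without one replicate they ranged from 2 to 3, 0 to 1, 1 to 2 and 0 to 1. Features called for diet fell from 2230 to 0 in either phase alone and to 2 without replicate 2, and rose to 3912 without replicate 1. For temperature they went from 3839 to 1681 in the dark phase only and 2310 without replicate 1, and for the clock mutation from 3304 to 1597 and 1199 in the light and the dark phase only and to 2041 and 1574 without replicate 1 and 2. Rhythmic features went from 1311 to 746 at 25°C and from 672 to 395 on 5% SY with the light-dark step, and without replicate 1 from 1311 to 792 at 25°C (734 without replicate 2) and from 1156 to 458 in *Clk-Jrk*.

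The labels do not say what a replicate number marks, and the rule for taking the libraries as paired, a correlation above 0.1 at every time, was not met: same-numbered libraries' deviations exceeded it at 10 of 12 times for temperature (mean 0.28), 11 of 12 for diet (0.27) and 1 of 6 for the clock mutation (-0.17). With a replicate block the members called for mean level were 3, 0 and 2, and the features called among those tested 4326, 3058 and 3358. Members called rhythmic with the block were 4, 1, 3 and 0, where 2876 of 6816, 1828 of 6909, 998 of 6653 and 1127 of 6437 features passed. With the block, 3 adjusted rhythm values came under 0.05: *MtnE* (0.0404) and *MTF-1* (0.0487) at 18°C and *MtnD* on 5% SY (0.0269, harmonic regression with Benjamini-Hochberg adjustment). Of the features tested, 1007 at 18°C and 41 on 5% SY were under 0.05 in this way.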
